A study of Homo sapiens with 18 samples.

Results

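The SR proteins and the heterogeneous nuclear ribonucleoproteins (hnRNPs) were taken as all protein-coding genes whose symbol begins with SRSF or HNRNP. Of the 35168 gene identifiers in the deposited tables, 39 met this rule, of which 12 were SRSF genes and 27 were HNRNP genes. The annotation holds 177 genes with these prefixes when pseudogenes, antisense and other non-coding genes are counted, and none of those was used.

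SR proteins carry RNA recognition motifs and a tail of arginine and serine repeats, bind exonic enhancers and recruit the spliceosome to nearby splice sites. hnRNPs coat nascent transcripts and often oppose SR proteins at the same exons, and many also act in export, stability or translation of mRNA. Several members limit their own level by including a so-called poison exon with a premature stop codon, which sends the transcript to nonsense-mediated decay (NMD).

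The cells were H1, an established human embryonic stem cell (hESC) line, either USB1 mut (USB1 mutant) or WT. The study made the mutant with Cas9 and a donor oligo as a 1-base frameshift deletion in USB1, a nuclease that trims the 3′ end of U6 snRNA, and picked edited colonies by hand. Total RNA was sequenced after rRNA depletion at day 0 (hESCs), at day 16 of hematopoietic differentiation (progenitors, which the study describes as positive for CD34 and CD45) and at day 30 (mature blood cells). Each of the 6 groups held 3 libraries, 18 in all. The study also put silent base changes into USB1 to aid the editing, and no further agent or allele was named for these libraries. How many edited colonies the libraries stand for is not given in the sources used here, so an effect of the mutation and a property of the edited line cannot be told apart.

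SRSF8 is shown first because it was the member with the largest genotype difference at day 16 and at day 30. It lies at chr11:95066919-95071225 with a canonical transcript of a single exon, and encodes a near relative of SRSF2, a classical SR protein. A 90-base stretch of the region coding for the RNA recognition motif of each follows, from coding position 130, on GRCh38 with GENCODE v44 exons, with the 18 bases that differ in capitals. The stretch was chosen as the ungapped one with the most differences in the first part of the aligned coding regions, so it does not stand for the motif as a whole. The SRSF8 stretch is chr11:95067356-95067445 on the plus strand and the SRSF2 stretch chr17:76736942-76737031 on the minus strand.
SRSF8: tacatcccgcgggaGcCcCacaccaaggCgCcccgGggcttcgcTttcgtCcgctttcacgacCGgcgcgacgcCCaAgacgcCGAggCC
SRSF2: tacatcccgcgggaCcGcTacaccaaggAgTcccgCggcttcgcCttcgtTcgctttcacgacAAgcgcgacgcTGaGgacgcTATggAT
Over the whole coding regions (849 and 666 bases) 64.9% of aligned bases were identical and the longest shared run was 45 bases. The HNRNPA1 relatives are closer. HNRNPA1L2 and HNRNPA1L3 shared 84.7% and 85.5% of coding bases with HNRNPA1, with runs of 286 and 334 identical bases, and their counts are uncertain for that reason. HNRNPH2 and HNRNPH1 shared 87.6%, with a longest run of 50 bases. HNRNPA3, SRSF2 and HNRNPA2B1 overlap NFE2L2, MFSD11 and CBX3 on the opposite strand. Although the libraries were made strand-specific, the sources do not state whether the quantification used strand, so counts of such members are uncertain too.

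The deposited files also give an average transcript length for each gene and library, which moves when the mix of a gene's transcripts moves. To show what such a mix can contain, a poison exon of SRSF6 and of HNRNPH1 are printed, both taken from GENCODE v44 transcripts classed as NMD and absent from the canonical transcript, with the in-frame stop codon in capitals. The SRSF6 exon (chr20:43459153-43459420, GRCh38, plus strand, 268 bases) belongs to a 1680-base transcript, while the canonical SRSF6 transcript has 4353 bases. The HNRNPH1 exon (chr5:179621843-179621976, minus strand) has 134 bases.
SRSF6 poison exon: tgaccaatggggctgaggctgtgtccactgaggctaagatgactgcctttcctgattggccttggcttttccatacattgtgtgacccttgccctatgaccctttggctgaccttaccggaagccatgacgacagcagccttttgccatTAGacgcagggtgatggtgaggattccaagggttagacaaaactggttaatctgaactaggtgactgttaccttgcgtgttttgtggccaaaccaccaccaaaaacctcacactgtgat
HNRNPH1 poison exon: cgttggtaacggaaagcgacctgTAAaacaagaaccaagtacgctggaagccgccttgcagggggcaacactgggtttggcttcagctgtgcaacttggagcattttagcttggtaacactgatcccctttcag
The files hold no value per exon, so inclusion of these exons was not measured.

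Promoter sequence, 250 bases before to 50 after the start site, came from RefSeq (GRCh38.p14) and matched 35 of the 39 members. SRSF3, which fell between day 16 and day 30 in both genotypes, and SRSF4, which rose over the same interval, are printed with 3 kinds of motif in capitals, each searched on both strands, so that its reverse complement counted as well. These were the CCAAT box with the letters CCAAT, the core promoter element known as the TATA box with the letters TATAAA, and a motif of the kind that ETS factors bind with the letters CCGGAA. None of them overlapped another in the printed windows.
SRSF3 promoter (chr6:36594112-36594411, plus strand): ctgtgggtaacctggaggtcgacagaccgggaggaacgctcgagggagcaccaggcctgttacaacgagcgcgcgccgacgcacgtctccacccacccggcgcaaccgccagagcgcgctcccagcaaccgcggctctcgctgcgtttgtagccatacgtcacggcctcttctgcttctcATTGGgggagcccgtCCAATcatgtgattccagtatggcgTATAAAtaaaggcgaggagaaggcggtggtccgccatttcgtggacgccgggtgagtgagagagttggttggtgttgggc
SRSF4 promoter (chr1:29181851-29182150, minus strand): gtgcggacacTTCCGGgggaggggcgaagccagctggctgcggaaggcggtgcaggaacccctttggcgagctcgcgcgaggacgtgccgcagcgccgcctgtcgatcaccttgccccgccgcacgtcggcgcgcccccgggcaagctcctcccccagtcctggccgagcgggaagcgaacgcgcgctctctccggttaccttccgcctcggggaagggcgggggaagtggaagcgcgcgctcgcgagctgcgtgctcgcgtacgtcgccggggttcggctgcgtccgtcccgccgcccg
CCAAT stood in 22 of the 35 member promoters (62.9%), against 39.7% of all 27305 genes in the RefSeq table. The E-box CACGTG stood in 7 (20.0%, against 8.77%), CCGGAA in 8 (22.9%, against 20.1%) and TATAAA in 6 (17.1%, against 13.99%). A gene with more than 1 promoter in the table counted once if any of them held the letters. These are counts of letters, not of bound sites. The background was not limited to protein-coding or expressed genes, and the overlapping HNRNPUL2 and HNRNPUL2-BSCL2 each counted as a member.

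Total counts ran from 4125125 to 19368927 per library. The labelled cell types were checked against marker lists as summed TPM (the deposited abundance, scaled per transcript length and library). Pluripotency markers summed to 4094 to 4884 in mutant and 4339 to 4624 in WT cells at day 0, and were at most 84.7 in every later library. Progenitor markers were all detected at day 16, at 1045 to 1127 in mutant and 1062 to 1393 in WT cells. They were also all detected at day 30, at 883 to 995 in mutant and 899 to 923 in WT cells, so their detection did not set day 16 apart from day 30. By group mean at day 30, KIT (171 in mutant and 13.0 in WT), GATA2 and TAL1 were higher in the mutant. PTPRC (159 in mutant and 365 in WT), SPN, RUNX1, MYB and CD34 were lower. Markers of other lineages also stood at other levels in the mutant. Mature myeloid markers summed to 6693 to 8663 in mutant and 25381 to 43712 in WT progenitors at day 16, and to 2929 to 6156 in mutant and 7160 to 10015 in WT cells at day 30. PRG2 and EPX, granule protein genes of eosinophils, made up most of the day 16 gap, and the other 8 myeloid markers summed to 1672 to 2785 in mutant and 1957 to 4834 in WT progenitors, which overlapped, and to 1306 to 2671 in mutant and 5014 to 6285 in WT cells at day 30. Erythroid markers summed to 164 to 219 in mutant and 58.0 to 79.1 in WT progenitors, and to 1099 to 2796 in mutant and 727 to 1254 in WT cells at day 30. Endothelial markers summed to 154 to 175 in mutant and 109 to 136 in WT progenitors, and to 62.2 to 104 in mutant and 126 to 137 in WT cells at day 30. Most of these sums was PECAM1, which averaged 111 in mutant and 101 in WT progenitors, and 78.8 in mutant and 125 in WT cells at day 30. The other endothelial markers averaged at most 2.93 at day 30, where CDH5 and VWF were lower and KDR, TEK and ESAM higher in the mutant. The day 30 sums therefore do not show a difference in endothelial cells. The ranges of stromal markers overlapped at both days, at 8.38 to 13.9 in mutant and 3.05 to 8.42 in WT progenitors. The part of these marker differences in the genotype results at days 16 and 30 was not tested, and in bulk samples fewer cells of a type and less RNA per cell cannot be told apart. USB1 RNA did not differ by the test on any day. It had 84.0, 85.5 and 89.02 CPM (counts scaled to the library total) in mutant and 73.9, 80.6 and 85.2 CPM in WT hESCs, and 41.9, 62.8 and 65.6 CPM in mutant and 61.7, 68.8 and 70.5 CPM in WT cells at day 30. Its log2 fold changes on the 3 days (0.11, -0.09 and -0.24) did not pass the test (adjusted p = 0.623, 0.668 and 0.432, edgeR quasi-likelihood). An RNA level says nothing on the presence of the deletion.

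Most members were abundant. HNRNPA1, a repressor of splice sites that antagonises SR proteins, had the highest level of all members per transcript length at days 0 and 16. At day 0 it stood at 1018, 1093 and 1047 TPM in mutant and 1181, 1159 and 1198 TPM in WT hESCs. Next came HNRNPC, which binds uridine tracts, at 703 to 776 TPM in mutant and 714 to 907 TPM in WT hESCs, and HNRNPA2B1, close in sequence to HNRNPA1, at 538 to 693 TPM in mutant and 733 to 819.9 TPM in WT hESCs. The ranges of these neighbours overlapped in WT and did not overlap in the mutant, while HNRNPA1 stood clear of both in each genotype. At day 30 HNRNPH1, which binds G-rich elements, headed the order at 385 to 460.4 TPM in mutant and 449.9 to 505 TPM in WT cells, and its range overlapped that of HNRNPA1 (374 to 458 TPM in mutant and 311 to 485 TPM in WT cells). The SRSF gene with the highest mean at day 0 was SRSF2, at 524, 563 and 571 TPM in mutant and 519.7, 508 and 526 TPM in WT hESCs.

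At the low end, HNRNPCL1, HNRNPCL2, HNRNPCL3 and HNRNPCL4, relatives of HNRNPC, were at 0 in every library but for 1 count of HNRNPCL1 in mutant replicate 2 at day 0. These 4 genes were never tested. Of the 39 members, 35 passed the filter on low counts at day 0, 34 at day 16, 33 at day 30 and 35 over all 18 libraries. HNRNPA1L3 dropped out at days 16 and 30 and SRSF12 at day 30.

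As a share of all counts, the 39 members took a mean of 1.06% in mutant and 1.12% in WT cells at day 0, 1.08% in mutant and 0.896% in WT cells at day 16, and 0.559% in mutant and 0.553% in WT cells at day 30. In summed TPM the 12 SRSF genes had 2336 ± 54.2 in mutant and 2479 ± 105 in WT cells at day 0, 2326 ± 248 in mutant and 1941 ± 126 in WT cells at day 16, and 1265 ± 34.2 in mutant and 1336 ± 75.0 in WT cells at day 30 (mean ± SD, n = 3). The 27 HNRNP genes summed to 6348 ± 379 in mutant and 7133 ± 115 in WT cells at day 0, 6263 ± 386 in mutant and 5391 ± 229 in WT cells at day 16, and 3093 ± 156 in mutant and 3585 ± 270.5 in WT cells at day 30. Both families were thus at their lowest at day 30 in each genotype. These sums are given as descriptions with no test.

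**Figure D1:**
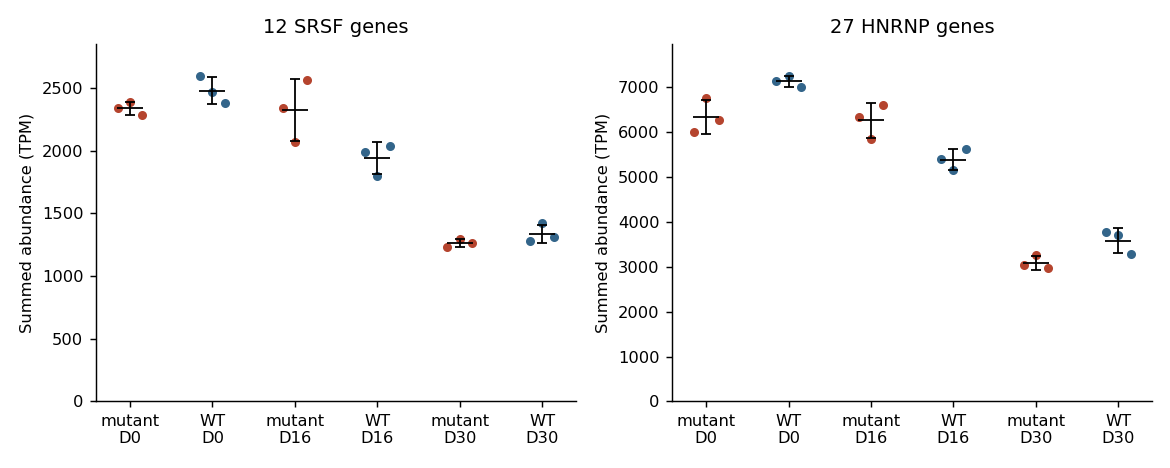
Summed abundance (TPM, y axis) of the 12 SRSF genes and of the 27 HNRNP genes in each of the 18 libraries, by day and genotype; points are libraries (mutant red, WT blue) and bars mean ± SD of 3. Both sums are lowest at day 30, where SRSF genes sum to 1230.4 to 1299 in mutant and 1276 to 1420.0 in WT libraries.

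In undifferentiated hESCs no member passed the test between genotypes. With edgeR's quasi-likelihood test on estimated counts and a Benjamini-Hochberg adjusted p under 0.1, 0 of 35 tested members were called, against 2.93% of all 14719 genes tested (1.07% higher and 1.87% lower). At an unadjusted p under 0.05 there was 1 member (HNRNPH2), and DESeq2, limma-voom and the fit with replicate blocks, which called 11.7% of all genes, also called 0. In the blocked fit HNRNPA2B1, HNRNPH2, HNRNPUL2-BSCL2, HNRNPAB, HNRNPU and SRSF2 had an unadjusted p under 0.05. Their adjusted p ran from 0.111 to 0.168 (edgeR quasi-likelihood). The median log2 fold change of the members was -0.07 (all genes 0.00), and the 95% interval stayed within 2-fold for 34 of 35, the exception being the rarely counted HNRNPA1L3. SRSF1, an SR protein that promotes the use of nearby 5′ splice sites, had 443, 466 and 426 CPM in mutant and 524, 499 and 412 CPM in WT hESCs (log2 fold change -0.10, 95% interval -0.34 to 0.13). SRSF3, the smallest SR protein and an adaptor for mRNA export, had 363, 316 and 311 CPM in mutant and 391, 326 and 275 CPM in WT hESCs (0.00, -0.29 to 0.29). The genotypes overlapped for both. The fold changes of SRSF2 (0.17, -0.03 to 0.36), HNRNPA1 (-0.02, -0.23 to 0.19) and HNRNPC (0.04, -0.24 to 0.32) also had intervals that included 0. The 3 mutant and 3 WT values did not overlap for 7 of 35 members (HNRNPA2B1, HNRNPAB, HNRNPH1, HNRNPH2, HNRNPU, HNRNPUL1 and SRSF2), as they did for 20.8% of all genes.

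In progenitors at day 16, SRSF8 and HNRNPA3 rose in the mutant, which was 2 of 34 tested members, against 28.5% of all 14528 genes tested. SRSF8 had 24.6, 31.7 and 33.1 CPM in mutant and 13.8, 17.8 and 23.6 CPM in WT progenitors. Each mutant library was above each WT library, by 0.65 ± 0.20 on the log2 scale (SE, adjusted p = 0.0389, edgeR quasi-likelihood). HNRNPA3, a relative of HNRNPA1, had 316, 281 and 342 CPM in mutant and 241, 193 and 256 CPM in WT progenitors. Its groups did not overlap either (log2 fold change 0.41 ± 0.15, adjusted p = 0.0736). The call of SRSF8 was lost with transcript lengths as offsets (adjusted p = 0.314) and without WT replicate 1 (0.133), WT replicate 2 (0.119), mutant replicate 2 (0.1196) or mutant replicate 3 (0.128). The deposited length of SRSF8 was itself uneven, at 3754 bases in WT replicate 1 at day 16 and 1646 to 2175 bases in the other 5 libraries of that day. The call of HNRNPA3 was lost without WT replicate 1 (adjusted p = 0.123), WT replicate 2 (0.288), mutant replicate 1 (0.157) or mutant replicate 3 (0.211).

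Most other members at day 16 had positive log2 fold changes that did not pass the test. The median log2 fold change over 34 members was 0.13 (all genes 0.01), 29 were positive and 7 had an unadjusted p under 0.05. SRSF3 had 358, 315 and 356 CPM in mutant and 259, 248 and 307 CPM in WT progenitors, so the groups did not overlap (log2 fold change 0.30, adjusted p = 0.133). SRSF1 (0.24, adjusted p = 0.238), SRSF2 (0.17, 0.439), HNRNPC (0.24, 0.238) and HNRNPA1 (0.04, 0.870) were further from the threshold. Among the 31 members with a mean of at least 50 CPM, 1 was called, against 33.5% of all genes at that level. The 3 and 3 values did not overlap for 9 of 34 members, against 38.5% of all genes.

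Same-numbered libraries of the 2 genotypes deviated together at days 0 and 16, and a fit with the replicate number as a block called 8 members at day 16, against 37.2% of all genes. These were SRSF8 (0.67), HNRNPA3 (0.41), HNRNPM (0.37), HNRNPA0 (0.36), HNRNPAB (0.36), HNRNPR (0.32) and SRSF3 (0.30) as higher in the mutant, and HNRNPLL as lower (-0.32). HNRNPLL, which directs exon skipping of the CD45 transcript in lymphocytes, had 57.6, 61.2 and 55.8 CPM in mutant and 79.5, 62.8 and 71.1 CPM in WT progenitors. It was the lowest of the 34 log2 fold changes without the block as well (-0.33, adjusted p = 0.106). Without WT replicate 3, the unblocked fit also called 8 members. Without WT replicate 1, WT replicate 2 or mutant replicate 3 it called 0, and without mutant replicate 1 or 2 it called 1.

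**Figure D2:**
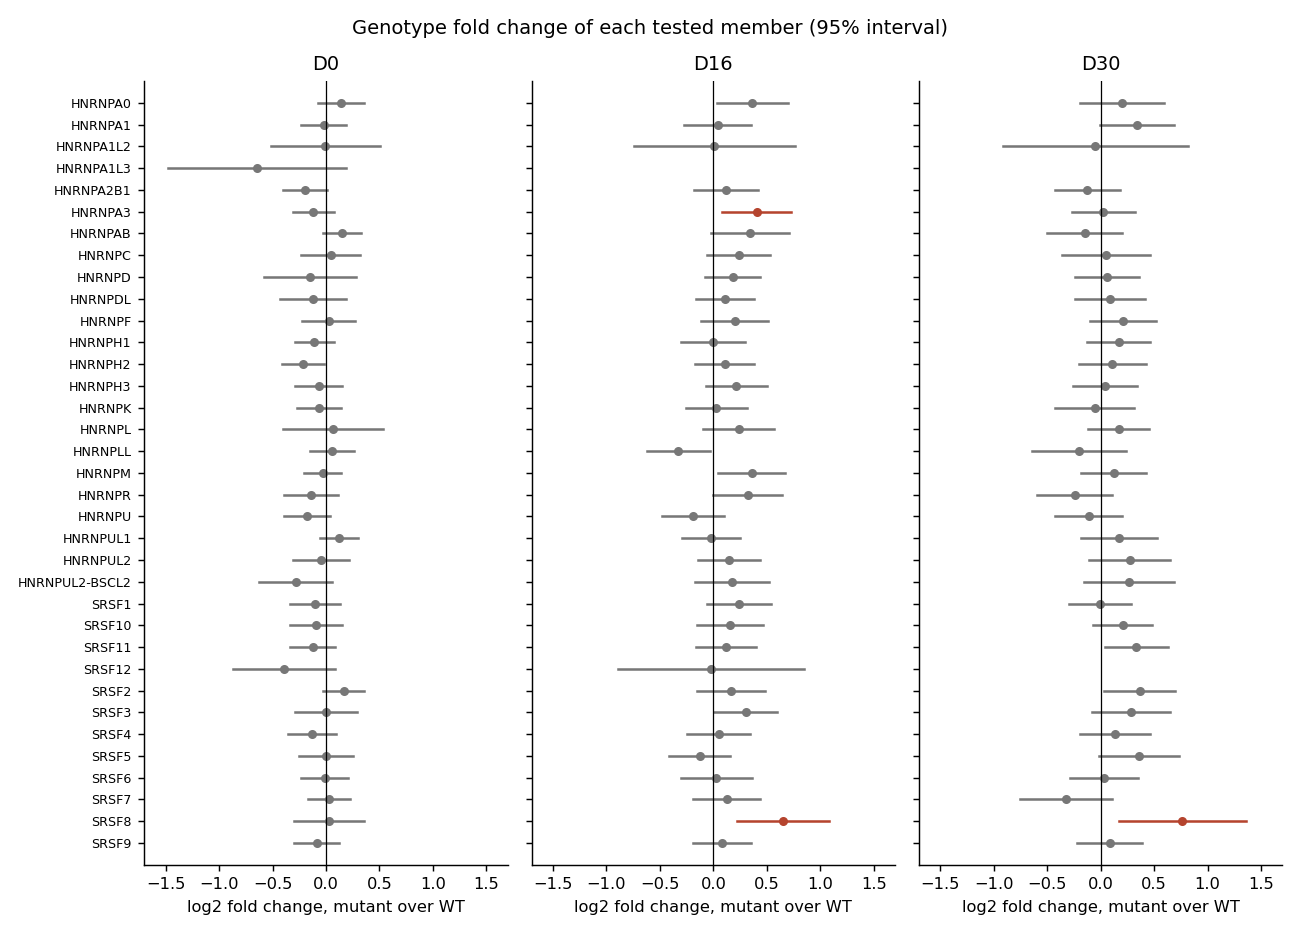
Log2 fold change, mutant over WT (x axis), of each tested member at days 0, 16 and 30, with 95% intervals as lines; red marks a call at adjusted p under 0.1. No member is called at day 0, 2 are called at day 16 and 1 at day 30, and 29 of 34 lie above 0 at day 16.

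In mature blood cells at day 30 the only member called was SRSF8, 1 of 33 tested, against 20.6% of all 14263 genes tested. It had 49.4, 30.6 and 27.2 CPM in mutant and 26.7, 20.1 and 16.8 CPM in WT cells. All mutant libraries were above all WT libraries, by 0.76 ± 0.26 on the log2 scale (adjusted p = 0.0922, edgeR quasi-likelihood). The call was lost without mutant replicate 1 (log2 fold change 0.46, adjusted p = 0.217), WT replicate 2 (0.224) or WT replicate 3 (0.260). The next smallest adjusted p values belonged to SRSF11 (0.33, adjusted p = 0.127), SRSF2 (0.36, 0.141), HNRNPA1 (0.34, 0.185) and SRSF5 (0.36, 0.193), all 4 of which had mutant values above all WT values. SRSF2 had 246, 239.9 and 288 CPM in mutant and 180.1, 209 and 212 CPM in WT cells, and HNRNPA1 had 363, 354 and 355 CPM in mutant and 322, 287 and 240.1 CPM in WT cells. SRSF1 (-0.01, adjusted p = 0.969), SRSF3 (0.28, 0.286) and HNRNPC (0.05, 0.894) did not pass the test. The median over 33 members was 0.11 (all genes -0.01) and 24 were positive. Groups did not overlap for 11 members, against 35.7% of all genes. Among the 31 members with a mean of at least 50 CPM, 0 were called, against 26.3% of all genes at that level, and 3 members in all had an unadjusted p under 0.05. DESeq2 called 3 members (SRSF8, SRSF11 and SRSF2) and limma-voom called 1 (SRSF8).

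HNRNPU, which scaffolds nuclear RNA and chromatin, is the member on the long arm of chromosome 1, where the median gene was below WT in the mutant on every day. The median log2 fold change of genes on that arm was -0.19 (662 genes) at day 0, -0.49 (686) at day 16 and -0.31 (678) at day 30, against 0.01, 0.03 and 0.00 for genes elsewhere. HNRNPU itself had log2 fold changes of -0.18, -0.19 and -0.11, none of which passed the test (adjusted p = 0.433, 0.336 and 0.634). At day 0 its values did not overlap, at 1190.3, 1192 and 1140.2 CPM in mutant and 1478, 1311 and 1204 CPM in WT hESCs. The part of the chromosome arm in the level of HNRNPU was not tested.

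**Figure D3:**
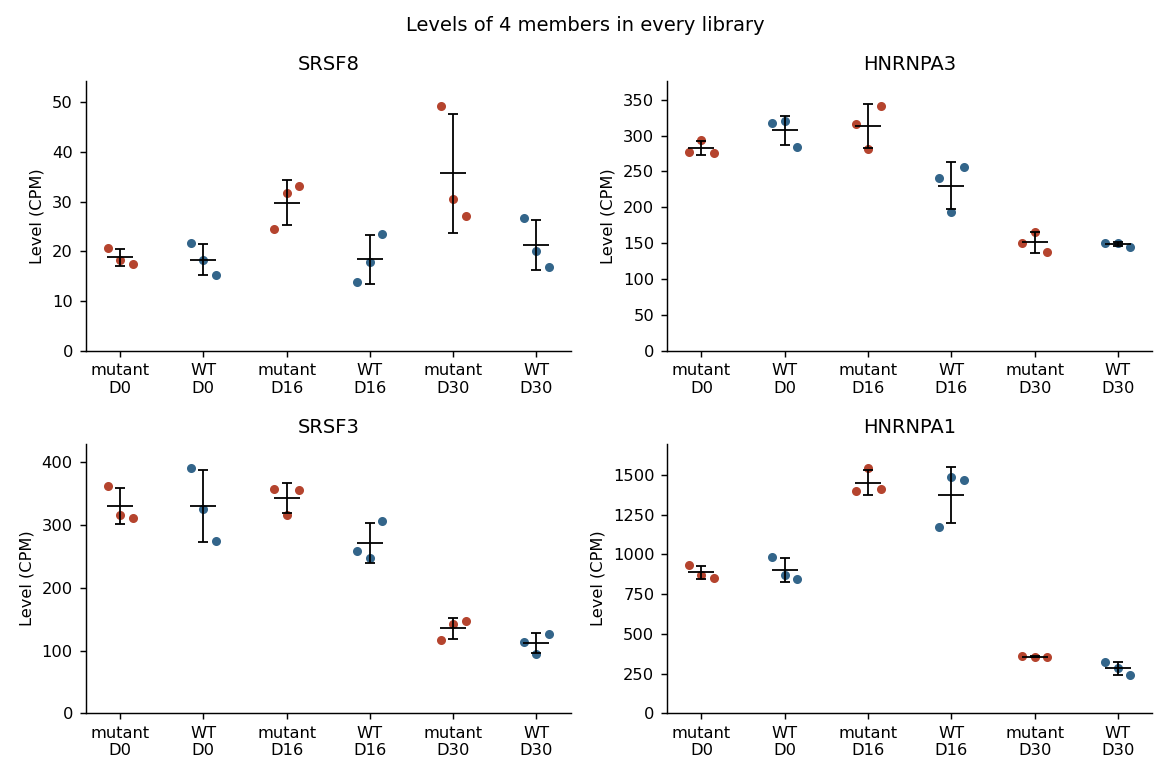
Level in CPM (y axis) of SRSF8, HNRNPA3, SRSF3 and HNRNPA1 in each library, by day and genotype; points are libraries (mutant red, WT blue) and bars mean ± SD of 3. SRSF8 is above WT in all mutant libraries at days 16 and 30 and overlaps it at day 0, and HNRNPA1 is highest at day 16 and lowest at day 30 in both genotypes.

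The same libraries were compared between days within each genotype, in a fit over all 18 libraries. Between day 0 and day 16, 16 of 35 members changed in the mutant and 15 of 35 in WT cells, against 72.9% of all 16829 genes in the mutant and 76.3% in WT. The directions were 11 higher and 5 lower in the mutant (all genes 36.9% higher and 36.0% lower) and 4 higher and 11 lower in WT (37.0% higher and 39.3% lower). The 11 lower in WT became 6 without a count filter or without WT replicate 2 at day 16, and 7 without WT replicate 1 of either day. The members' median log2 fold change was 0.10 in the mutant (all genes 0.01, and 0.02 for members against -0.06 for all genes with RLE scaling) and -0.12 in WT (all genes -0.04). Of the members called, 4 rose and 5 fell in both genotypes. The share of all genes called the same way in both genotypes was not counted, so this overlap is not read as particular to the members. The comparisons of the 2 genotypes share no library.

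SRSF5, a classical SR protein, rose most. It had 292, 251 and 282 CPM at day 16, against 120.2, 115 and 111 CPM at day 0 in the mutant, and 291, 315 and 272 CPM at day 16, against 135, 111 and 101 CPM at day 0 in WT (log2 fold changes 1.25 and 1.34). HNRNPUL2, a relative of HNRNPU, followed with 1.22 in the mutant and 0.99 in WT, and HNRNPH2, a relative of HNRNPH1, with 1.16 in the mutant and 0.79 in WT. HNRNPA1 rose by 0.71 in the mutant and 0.61 in WT. HNRNPUL2 shares its strand and part of its span with the readthrough gene HNRNPUL2-BSCL2, so the counts of both are uncertain.

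The deepest falls between day 0 and day 16 were in SRSF12 (log2 fold change -1.38 in the mutant and -1.78 in WT), HNRNPAB (-0.84 and -1.07), HNRNPM (-0.63 and -1.06) and HNRNPA0 (-0.48 and -0.74). SRSF12 was rare from the start, at 4.97 ± 1.23 CPM in mutant and 6.49 ± 0.705 CPM in WT hESCs (SD, n = 3). HNRNPAB binds RNA and single-stranded DNA, and had 272, 256 and 330.4 CPM at day 16, against 522, 491 and 524 CPM at day 0 in the mutant, and 206, 182 and 270.3 CPM at day 16, against 467, 457 and 459 CPM at day 0 in WT. SRSF1 fell in WT (-0.47) and had -0.08 in the mutant, where it did not pass the test (adjusted p = 0.542). The difference between these 2 changes was tested as the interaction below, where SRSF1 was not called.

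Between day 16 and day 30 almost all members fell. In the mutant 34 of 35 members changed, with 31 lower and 3 higher, against 69.8% of all genes called (35.1% lower and 34.7% higher). In WT 33 of 35 changed, with 30 lower and 3 higher, against 66.7% of all genes (35.1% lower and 31.6% higher). The members' median log2 fold change was -0.78 in the mutant and -0.69 in WT, where all genes had 0.00 and -0.02. All 30 members lower in WT were also lower in the mutant, and the same 3 were higher in both. How many of all genes were called alike in both genotypes was not counted for this pair of days either. Without WT replicate 3 at day 16 the WT count was 29.

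HNRNPA1 fell furthest among the abundant members. In the mutant it had 363, 354 and 355 CPM at day 30, against 1397, 1542 and 1413 CPM at day 16, and in WT it had 322, 287 and 240.1 CPM at day 30, against 1171, 1485 and 1468 CPM at day 16. All day 30 values were below all day 16 values, by -2.02 ± 0.13 in the mutant and -2.28 ± 0.13 in WT on the log2 scale (SE). SRSF3 had 117, 142 and 147 CPM at day 30, against 358, 315 and 356 CPM at day 16 in the mutant, and 113, 95.2 and 127 CPM at day 30, against 259, 248 and 307 CPM at day 16 in WT (log2 fold changes -1.34 and -1.28). SRSF7, a zinc knuckle SR protein, fell further than SRSF3 in the mutant and less in WT (-1.40 in the mutant and -0.92 in WT), and SRSF6, an SR protein of the long form with paired RNA recognition motifs, had -1.17 and -1.13. HNRNPC (-1.34 and -1.11), SRSF1 (-1.22 and -0.93) and HNRNPK (-1.04 and -0.92), which binds poly(C), also fell in both. HNRNPU fell less, by -0.53 in the mutant and -0.57 in WT, as did SRSF2, by -0.60 and -0.76.

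The rarest members showed the largest ratios on the fewest reads. SRSF12 had log2 fold changes of -3.19 in the mutant and -2.44 in WT, from 0.304, 0.0834 and 0.267 CPM at day 30, against 2.52, 1.81 and 1.39 CPM at day 16 in the mutant. HNRNPA1L3 had 4 counts at day 30, against 20 at day 16 over the mutant libraries (ratio 0.290, 95% counting interval 0.0720 to 0.865), and 1 count at day 30, against 29 at day 16 over the WT libraries (ratio 0.0380, 0.00093 to 0.229). These intervals cover counting error only.

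The 3 members that rose after day 16 were HNRNPUL2-BSCL2, HNRNPLL and SRSF4. HNRNPUL2-BSCL2 had a log2 fold change of 0.94 in the mutant and 0.89 in WT. This readthrough gene overlaps BSCL2 as well as HNRNPUL2 on its own strand, and its 1 annotated transcript is classed as NMD. Which of these genes its reads came from was not tested. HNRNPLL had 72.1, 102 and 81.0 CPM at day 30, against 57.6, 61.2 and 55.8 CPM at day 16 in the mutant, and 75.3, 111 and 108 CPM at day 30, against 79.5, 62.8 and 71.1 CPM at day 16 in WT (0.55 and 0.47), and the days overlapped in WT. SRSF4, the largest of the classical SR proteins, had 119, 98.6 and 91.4 CPM at day 30, against 80.2, 74.2 and 88.9 CPM at day 16 in the mutant (0.35), and 88.4, 101 and 92.6 CPM at day 30, against 86.1, 70.9 and 72.2 CPM at day 16 in WT (0.30). The days did not overlap for SRSF4. With transcript lengths as offsets SRSF4 was no longer called in either genotype, and the call was also lost without mutant replicate 1 at day 30 in the mutant, and without WT replicate 3 at day 16 or WT replicate 2 at day 30 in WT. SRSF8 was the member not called in either genotype (0.27 in the mutant, adjusted p = 0.312, and 0.19 in WT, 0.501), and HNRNPL, which binds CA repeats, was not called in WT (-0.34, adjusted p = 0.114). TPM ran in the direction of the count change for all 34 called members in the mutant and for 30 of 33 in WT, the exceptions being HNRNPM, HNRNPUL1 and HNRNPUL2, for which all 3 WT lengths at day 30 were below all 3 at day 16.

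**Figure D4:**
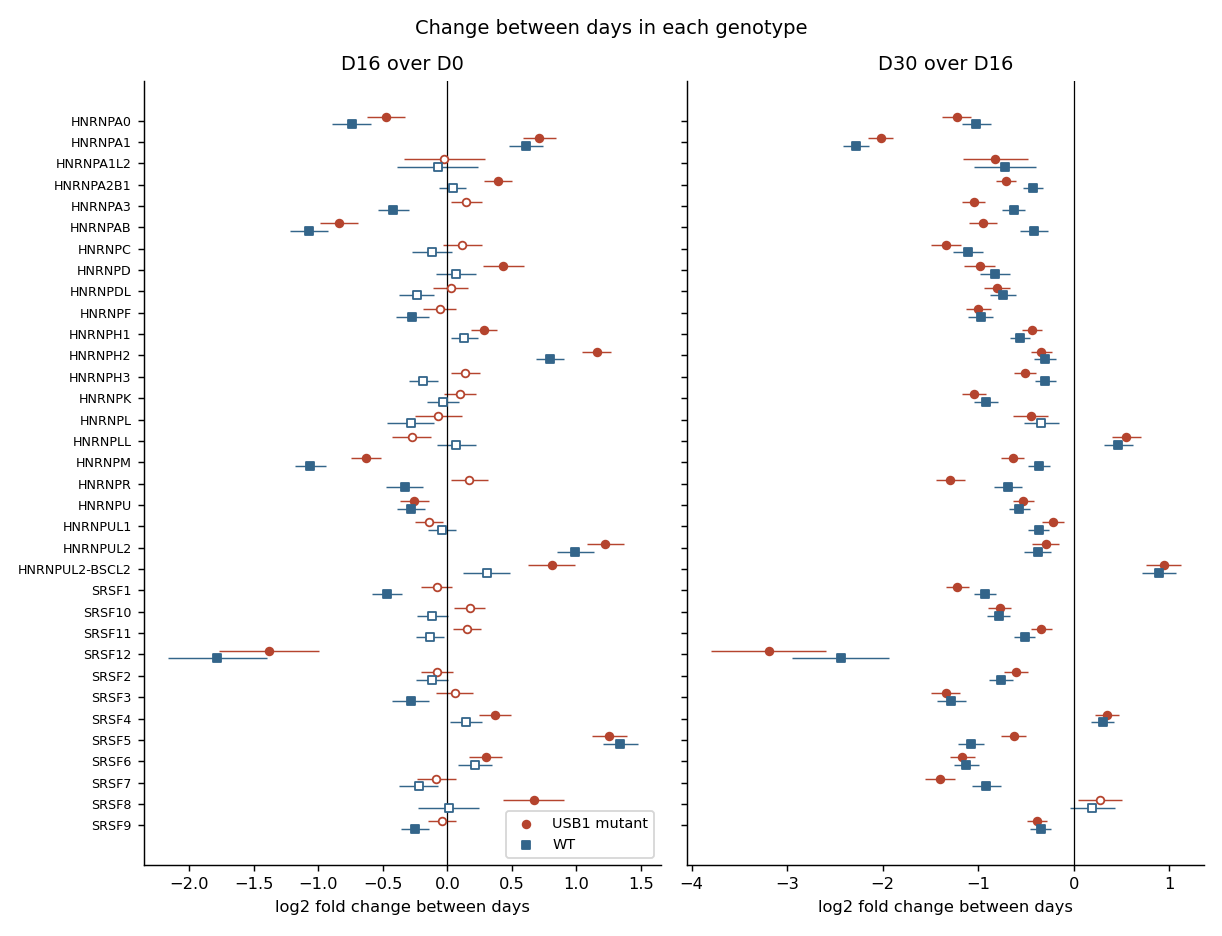
Log2 fold changes of 34 members in WT and mutant cells for day 16 over day 0 and for day 30 over day 16 (HNRNPA1L3 is left out for its few counts); filled points are called, open points are not, and bars are SE. Between day 16 and day 30 nearly every member lies below 0, with HNRNPUL2-BSCL2, HNRNPLL and SRSF4 above it and called in both genotypes and SRSF8 above it without a call.

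Whether a change between days differed between genotypes was tested as the interaction in the same fit, given as the change in the mutant minus the change in WT. For day 16 over day 0, 1 of 35 members was called (HNRNPA3, higher), against 7.61% of all genes (3.86% higher and 3.75% lower). For day 30 over day 16, 2 were called (HNRNPR and HNRNPAB, both lower), against 20.5% (10.3% higher and 10.2% lower), and for day 30 over day 0, 1 was called (SRSF11, higher), against 10.9% (6.42% higher and 4.48% lower). HNRNPR, a relative of SYNCRIP, had 201, 153 and 185 CPM in mutant and 122, 139 and 159.8 CPM in WT progenitors, and 70.3, 73.5 and 76.2 CPM in mutant and 103, 83.4 and 74.4 CPM in WT cells at day 30. The genotypes overlapped on both days. None of these 4 calls held under every alternative tried.

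The average transcript length was compared in the same way, with limma on its log2 value after each library was centred on its median. Between genotypes no member was called on any day, and 3, 4 and 2 members had an unadjusted p under 0.05 at days 0, 16 and 30. Of all genes 0.00679% were called at day 0, 0.0275% at day 16 and 0.0% at day 30, so almost nothing passed this test at 3 against 3 libraries. Without centring, with loess centring, at a minimum of 5 CPM in every library and with replicate blocks the count was also 0. The member with the largest shift was HNRNPM, which binds GU-rich elements. Its average length was 1239.6, 1248 and 1156 bases in mutant and 1655, 1507 and 1558 bases in WT cells at day 30. The groups lay apart by -0.38 ± 0.05 on the log2 scale, but the adjusted p was 0.266 (limma).

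Between days more members changed length. For day 16 over day 0, 2 members were called in the mutant and 6 in WT, against 8.51% of all genes in the mutant (4.21% longer and 4.3% shorter) and 10.7% in WT (5.55% longer and 5.16% shorter). For day 30 over day 16 there were 16 in the mutant and 8 in WT, against 33.5% in the mutant (15.6% longer and 17.9% shorter) and 16.4% in WT (7.08% longer and 9.35% shorter). As a yardstick, 2255 tested genes with a single annotated transcript, whose form cannot change, had 5th to 95th percentiles of -0.03 to 0.24 in the mutant and -0.05 to 0.16 in WT for day 30 over day 16, and 1071 of them in the mutant and 372 in WT were themselves called. A call alone therefore did not mark a change of form. Of the members called, 10 in the mutant and 6 in WT lay below those ranges and 0 lay above. Genes with more than 1 annotated transcript had much wider 5th to 95th percentiles, -0.71 to 0.50 in the mutant and -0.61 to 0.46 in WT. A place below the yardstick range was thus not particular to the members, and the share of all genes called and below it was not counted. For day 16 over day 0 the ranges were -0.08 to 0.12 in the mutant and -0.06 to 0.15 in WT, and 2 members in the mutant and 4 in WT lay below, with 2 in WT above. Here too genes with more than 1 transcript ran wider, at -0.57 to 0.54 in the mutant and -0.57 to 0.55 in WT.

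The SRSF6 average was shorter at day 30 in both genotypes. It was 1349, 1679.6 and 1553 bases at day 30, against 2057, 1879.8 and 1914 bases at day 16 in the mutant, and 1520.0, 1392 and 1659 bases at day 30, against 2262, 2088 and 2006 bases at day 16 in WT. The days did not overlap, at -0.36 ± 0.09 in the mutant and -0.48 ± 0.09 in WT on the log2 scale (adjusted p = 0.0077 and 0.0042, limma). HNRNPM (-0.55 and -0.24) and HNRNPUL1 (-0.30 and -0.26), an HNRNPU relative, were also shorter at day 30 in both. HNRNPM was at 1239.6, 1248 and 1156 bases at day 30, against 1751, 1718 and 1831 bases at day 16 in the mutant, and at 1655, 1507 and 1558 bases at day 30, against 1927, 1818 and 1826 bases at day 16 in WT. Whether its change differed between genotypes was not tested. In all, 5 members were shorter and 2 longer at day 30 in both genotypes, and the 2 longer ones, HNRNPA1L3 and SRSF9, lay within the yardstick range. The share of all genes with the same length call in both genotypes was not counted. HNRNPA1L3 had 1.215, 1.252 and 1.247 counts in mutant and 0, 0 and 1.201 counts in WT cells at day 30, so its lengths there rest on almost no reads. HNRNPR (-0.33), HNRNPUL2 (-0.33) and HNRNPK (-0.25) were called in the mutant and not in WT, and the difference between genotypes was not tested.

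SRSF5 and HNRNPH1 were called shorter at day 16 than at day 0 in both genotypes, though for 3 of these 4 calls the replicate block ended the call. SRSF5 had 805, 796 and 834 bases at day 16, against 1015, 1069 and 998 bases at day 0 in the mutant, and 838, 839 and 831 bases at day 16, against 945, 1025 and 887 bases at day 0 in WT (-0.35 and -0.19, adjusted p = 0.0031 and 0.0788). HNRNPH1 changed by -0.21 in the mutant and -0.20 in WT (adjusted p = 0.0862 and 0.0950). With the block the adjusted p of SRSF5 was 0.0088 in the mutant and 0.121 in WT, and that of HNRNPH1 0.119 in the mutant and 0.129 in WT (limma). In WT, HNRNPA3 (0.27) and HNRNPA2B1 (0.21) were longer at day 16, and HNRNPK (-0.17) and HNRNPL (-0.09) shorter. HNRNPA2B1 had 1915, 1814 and 1717 bases at day 16, against 1539, 1548 and 1583 bases at day 0. The direction split depended on the centring and on the filter. Loess centring was done on the mean log2 length of each gene. With it the day 30 over day 16 calls were 13 longer and 7 shorter in the mutant and 8 longer and 4 shorter in WT. Median centring gave 6 longer and 10 shorter in the mutant and 2 longer and 6 shorter in WT. At a minimum of 5 CPM in every library there were 12 longer and 7 shorter in the mutant, and without mutant replicate 1 at day 30 there were 5 longer and 6 shorter. The WT calls also rested on few libraries: 3 members were called for day 30 over day 16 without WT replicate 3 at day 16 or WT replicate 1 at day 30, and 4 without WT replicate 2 of either day. For day 16 over day 0 in WT there were 3 without WT replicate 1 of either day, and in the mutant SRSF5 alone was called without mutant replicate 1 or 2 of either day.

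**Figure D5:**
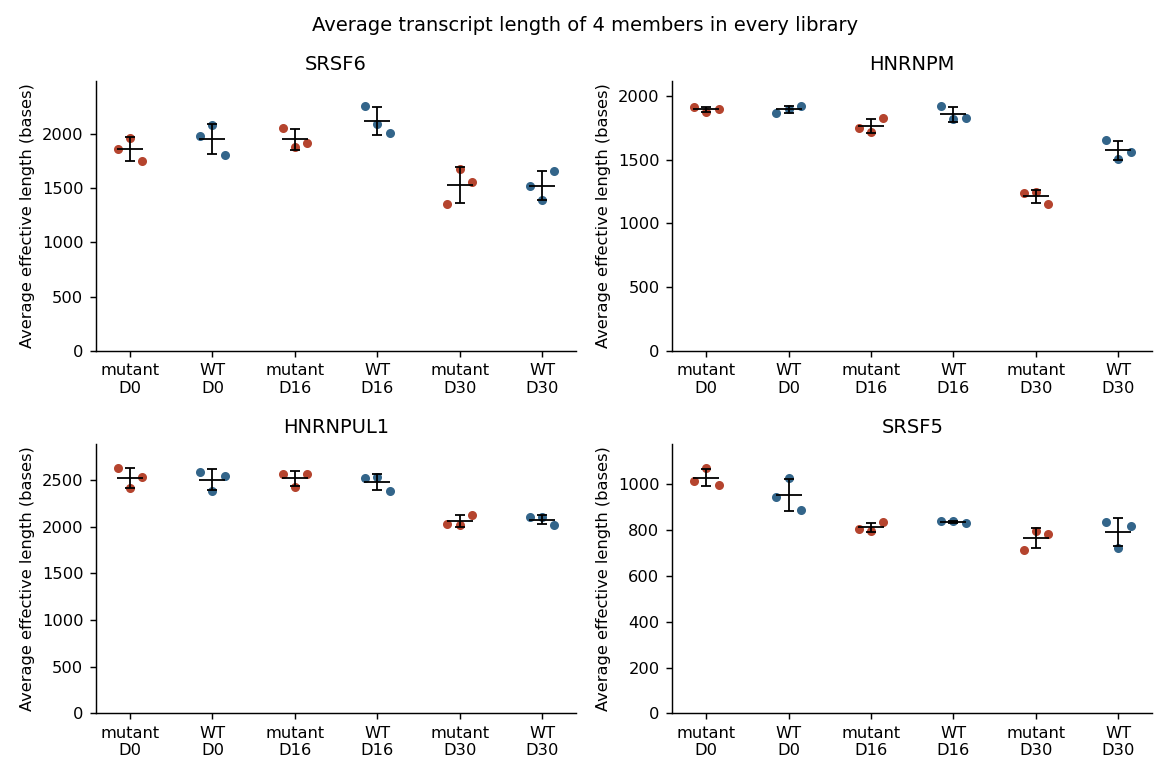
Average effective transcript length in bases (y axis) of SRSF6, HNRNPM, HNRNPUL1 and SRSF5 in each library, by day and genotype; points are libraries (mutant red, WT blue) and bars mean ± SD of 3. SRSF6, HNRNPM and HNRNPUL1 are shortest at day 30, and SRSF5 is longest at day 0.

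Other splicing regulators were counted by list beside the members. The kinases and phosphatases that act on SR proteins were 8 tested genes at day 30, of which 4 rose in the mutant (CLK1, CLK3, DYRK1A and CLK4) and 0 fell, with a median of 0.29 (all genes 10.8% higher and 9.75% lower). CLK1, a kinase that phosphorylates SR proteins in the nucleus, averaged 99.1 ± 3.74 CPM in mutant and 56.8 ± 4.48 CPM in WT cells (SD, n = 3), a log2 fold change of 0.81 ± 0.13 (SE, adjusted p = 0.0074). CLK3 had 0.90 (adjusted p = 0.0142) and DYRK1A 0.59 (0.0384). At day 16 the same list had 1 higher (PPP1R8, a targeting subunit of protein phosphatase 1, 0.38) and 1 lower (CLK2, -1.07), with a median of -0.17 (all genes 13.1% higher and 15.3% lower).

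The same shares of all genes apply to the next lists. Of the SR-related proteins, 14 were tested at days 16 and 30. At day 30, where 10.8% of all genes were higher, 3 rose in the mutant (SRRM2 by 0.75, SAFB by 0.62 and SAFB2 by 0.69), and at day 16 edgeR called 0, with 1 at an unadjusted p under 0.05. Of the hnRNP-type proteins under other names, 2 of 13 rose at day 30, the poly(C)-binding PCBP1 (0.92) and PCBP2 (0.66), and PCBP4 alone of 14 fell at day 16 (-0.67). U2AF2, the large subunit of the factor that recognises the 3′ splice site, rose at day 16 (0.51), and U2AF1, the small subunit, at day 30 (0.44), each the only call among 8 genes of 3′ splice site recognition, a count near the share of all genes. U2AF1 has a near-identical copy, so its count is uncertain.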

How the data were processed

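Per the submitters' processing notes, the tools included Trimmomatic 0.36 and Salmon 0.13.1 with the Ensembl GRCh38 transcripts. For every gene of every library the authors deposited an expected count (the Salmon estimate, not normalized), the TPM abundance and the average effective transcript length in bases, which carries the error of the transcript estimate. Libraries were strand-specific, strand use in quantification is not stated, and all per-sample columns had a listed sample (0 left over).

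Counts were rounded to whole numbers. Genotypes were compared within a day with edgeR 4.0.16 (R 4.3.3; filterByExpr, TMM, glmQLFit, glmQLFTest), and days and interactions in 1 fit with 6 group means over 18 libraries, at a Benjamini-Hochberg adjusted p under 0.1 over all genes tested. CPM were scaled with TMM factors over all libraries. Log2 lengths were tested with limma 3.58.1 (eBayes, trend, robust), and TPM was only described. The day 16 genotype comparisons of counts and of lengths were also run on simulated data, and the fit over 18 libraries was not. Symbols came from GENCODE v44, which matched 35051 identifiers, while 117 others (0.238% of counts) stayed in the fits.

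Named members were every call of a genotype comparison plus SRSF1, SRSF2, SRSF3, HNRNPA1, HNRNPC and HNRNPU, the 4 highest and 4 lowest called in WT per pair of days, and up to 6 called by length. Other members were named after their values were seen, such as HNRNPLL and those called only with the block. The members, the 6 lists of other regulators (74 genes) and the 6 marker lists (46 genes) were chosen with earlier results of these data known, and the genotype comparison of the NMD list is not reported here. As nothing says that replicates were separate cultures, p measures the spread between these samples, which may be technical.

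Deviations of same-numbered libraries of the genotypes correlated at 0.285, 0.138 and 0.246 at day 0, at 0.116, 0.208 and 0.361 at day 16, and at 0.142, -0.055 and 0.289 at day 30, so the replicate number was taken to pair samples at days 0 and 16 only. This pairing comes from the data, not from a stated design. The alternatives were RLE scaling, no count filter, a minimum of 5 CPM, limma-voom, DESeq2 1.42.0, lengths as offsets, genotypes fitted over 18 libraries, an adjusted p under 0.05, each library left out, the block, and other centring of lengths.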

Additional observations from a re-analysis of the deposited data

Results flagged for a closer look

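For 4 members the change between days in the mutant differed from that in WT by the interaction test of edgeR's quasi-likelihood fit. Each value is the log2 change in the mutant minus that in WT, with its SE. HNRNPA3 had 0.57 ± 0.17 for day 16 over day 0 (adjusted p = 0.0681), with a change of 0.15 in the mutant and -0.42 in WT. HNRNPAB had -0.54 ± 0.21 for day 30 over day 16 (adjusted p = 0.0927), with -0.95 in the mutant and -0.42 in WT. HNRNPR had -0.60 ± 0.21 for day 30 over day 16 (adjusted p = 0.0613), with -1.29 in the mutant and -0.69 in WT. SRSF11 had 0.46 ± 0.15 for day 30 over day 0 (adjusted p = 0.0836), with 158, 182 and 170.3 CPM in mutant and 134, 129.7 and 141 CPM in WT cells at day 30.

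Single libraries decided each of the 4 calls. That of HNRNPA3 was lost without any of 9 of its 12 libraries, and was kept without WT replicate 3 at day 0, WT replicate 3 at day 16 or mutant replicate 2 at day 16. Over its alternatives the adjusted p of HNRNPA3 ran between 0.0186 and 0.156. That of HNRNPAB was lost without WT replicates 1 or 2 or mutant replicates 1 or 3 at day 16, and without WT replicate 2 or mutant replicates 2 or 3 at day 30 (adjusted p 0.0142 to 0.229 over its alternatives). That of HNRNPR was lost without WT replicates 1 or 2 or mutant replicates 1 or 3 at day 16, and without WT replicate 1 at day 30 (0.0283 to 0.257). That of SRSF11 was kept only without WT replicate 3 at day 0 or mutant replicate 1 at day 30 (0.0290 to 0.235). With lengths as offsets 3 of the 4 calls were lost, HNRNPA3 being the exception.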

How the results depend on the processing

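Genotype counts at day 0 stayed at 0 members under all alternatives. At day 16 the count (2) was 4 at 5 CPM or more in 3 libraries and with DESeq2, 6 in the fit over 18 libraries, 1 at an adjusted p under 0.05 and 0 to 8 with each library left out. At day 30 the count (1) was 2 at 5 CPM or more and with lengths as offsets, 3 with DESeq2, 5 in the fit over 18 libraries, 0 at an adjusted p under 0.05 and 0 to 1 with each library left out. Interaction counts for day 16 over day 0 (1) were 0 without a count filter or at an adjusted p under 0.05, 3 with DESeq2 and 0 to 3 with a library left out. Those for day 30 over day 16 (2) were 1 without a filter, 4 with DESeq2, 0 at 0.05 and 0 to 4 with a library left out. Those for day 30 over day 0 (1) were 0 with lengths as offsets, without a filter, with the replicate block and at 0.05, and 0 to 1 with a library left out. With the replicate block the genotype count at day 16 was 8, while at day 0 it was 0 and at day 30, where numbers did not pair, 1 (22.4% of all genes), and apart from the interaction of day 30 and day 0 and the mutant lengths of day 16 over day 0 it moved no other count by over 1.5 times. The totals of day calls kept within 1.5 times of the reported value under all alternatives, though the number lower in WT for day 16 over day 0 (11) was 6 without a count filter, with totals of 11 to 17 (WT) and 14 to 17 (mutant) for day 16 over day 0 and 29 to 32 (WT) and 31 to 33 (mutant) for day 30 over day 16 when a library was left out. Length counts for day 16 over day 0 ran from 3 to 7 in WT and from 1 to 3 in the mutant with a library left out, where the mutant had 1 with the replicate block and at an adjusted p under 0.05. For day 30 over day 16 WT lengths gave 5 without centring, 3 at 0.05 and 3 to 7 with a library left out, and the mutant 11 to 16. HNRNPUL1 for day 30 over day 16 in the mutant turned from -0.22 to 0.0042 with lengths as offsets (its transcripts were shorter at day 30, and the offset takes length into account). Of the values of named members under alternatives, 862 kept direction and call, 123 lost and 5 gained a call. Where no cause is given, the cause was not tested. Precision was limited by 3 libraries a group and, for HNRNPA1L3 and SRSF12, by few counts.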

Other observations

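The splicing factors listed as tissue-regulated were not described above. In hESCs 1 of 17 was called (2.93% of all genes), MBNL3, a regulator of the muscleblind family, which was lower in the mutant (log2 fold change -1.10 ± 0.24, SE, adjusted p = 0.0681, edgeR quasi-likelihood). In progenitors 2 of 12 rose in the mutant, RBFOX2 (0.97 ± 0.18) and RBM47 (0.70 ± 0.16), and 2 fell, NOVA1 (-1.72 ± 0.51) and MBNL1 (-0.38 ± 0.15), against 13.1% of all genes higher and 15.3% lower, so these counts are near that share. RBFOX2, which binds intronic GCATG elements, averaged 24.3 ± 4.13 CPM in mutant and 11.99 ± 1.84 CPM in WT progenitors (SD, n = 3). In mature blood cells 2 of 10 rose, RBM38 (1.71 ± 0.21) and MBNL2 (1.27 ± 0.16), against 10.8% of all genes. RBM38, known from erythroid differentiation, averaged 658 ± 155 CPM in mutant and 201 ± 30.9 CPM in WT cells. Erythroid markers summed to 1099 to 2796 TPM in mutant and 727 to 1254 TPM in WT cells at day 30, and their part in the RBM38 level was not tested.

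Between day 16 and day 30, of 15 hnRNP-type proteins under other names, 1 rose and 10 fell in the mutant (median -0.59, all genes 34.7% higher and 35.1% lower), and 0 rose and 11 fell in WT (median -0.51, all genes 31.6% higher and 35.1% lower). Against the same shares, the NMD factors had 7 higher and 2 lower of 10 in the mutant (median 0.63) and 5 higher and 1 lower in WT (median 0.28).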
